A study of Mus musculus with 25 samples.

Results

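The genes described here are 10 costimulatory receptors and ligands of the tumour necrosis factor (TNF) family: the receptors Tnfrsf9 (CD137), Tnfrsf4 (OX40), Tnfrsf18 (GITR), Cd27, Cd40 and Tnfrsf14 (HVEM), and the ligands Tnfsf9, Tnfsf4, Cd70 and Cd40lg. They were taken from the count table by symbol and make up 10 of the 55450 genes counted. RNA was sequenced from 25 tumours grown in C57BL/6 mice from the mouse melanoma cell line B2905, also named M4, with 1 library per tumour. All 25 tumours came from this 1 transplanted line, and 40 mice were implanted. Once tumours averaged 75 mm3, antibody was given 2 times a week for 2 weeks at 10 mg/kg. Of the tumours sequenced, 20 had received an antibody against CTLA-4, an inhibitory receptor of T cells, and 5 had received an isotype IgG2b antibody and are called controls. Of the 40 mice, 30 were given anti-CTLA-4, 5 IgG2b and 5 were left untreated. The 20 anti-CTLA-4 tumours are thus a part of that arm, and no untreated tumour was sequenced. The outcome assigned 10 to 11 days after the last dose divided the anti-CTLA-4 tumours into 8 responders, which shrank, 6 stable tumours and 6 non-responders, which kept growing. No source used here gives the age or sex of the mice. The labels do not say that each tumour came from a separate mouse, so the p-values measure the spread between these tumours.

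TNF family ligands form trimers that gather their receptors on the neighbouring cell, and the receptors given here recruit TRAF adaptor proteins and signal to NF-kappa-B. CD137, OX40, GITR and CD27 stand mainly on T cells and NK cells and sustain the division and survival of activated cells, while CD40 stands on dendritic cells, macrophages and B cells and receives CD40 ligand from helper T cells. HVEM is found on many cell types and binds both family ligands (LIGHT and lymphotoxin alpha) and the immunoglobulin-family receptors BTLA and CD160. In tumours, OX40 and GITR are known as markers of activated regulatory T cells, and CD137 of recently stimulated T cells.

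In brief, 8 of the 10 genes were higher in anti-CTLA-4 tumours than in controls in each of the 3 outcome groups, and the exception among the tested genes was Tnfsf9, the ligand of CD137. Over all genes, 36.1% were called higher than controls in responders, 22.2% in stable tumours and 10.6% in non-responders. With the level of CD3 genes, which mark T cells, as a covariate, none of the 8 genes was called against controls. In that fit 1434 of all 18031 genes were called in responders and 0 in stable tumours or non-responders. The non-responder calls of Tnfrsf9 and Tnfsf4 against controls were also lost without non-responder 6. Between outcomes, Tnfrsf9, Tnfrsf14 and Tnfsf9 were higher in responders than in non-responders, where 48.9% of all genes were called (25.2% higher). These calls were lost once each library's share of protein-coding counts entered the fit, while the fitted differences stayed positive. That share was low in most responders, so the fit separates share and group poorly. Tnfrsf9 and Tnfrsf14 also differed upward between stable tumours and non-responders, where 14.9% of all genes were called (7.08% higher). The stable call of Tnfrsf9 was lost in 21 of the 25 fits that left out 1 tumour. None of the 9 tested genes passed the test between responders and stable tumours, where 38.2% of all genes did. That percentage depended on the fit: after allowing for each library's protein-coding share, 0 of all 18031 genes passed there. The poor separation of share and group limits that fit too.

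The receptor genes Tnfrsf4, Tnfrsf18, Tnfrsf9 and Tnfrsf14 lie on mouse chromosome 4 (GRCm38, GENCODE release M21). Tnfrsf4 (chr4:156013843-156016612) and Tnfrsf18 (chr4:156026164-156028895) are neighbours on the plus strand, 9.55 kb apart with 0 protein-coding genes between them. Tnfrsf9 lies at chr4:150914562-150946102 on the plus strand and Tnfrsf14 at chr4:154921933-154928563 on the minus strand. Tnfsf9 (chr17:57105325-57107757) and Cd70 (chr17:57145997-57149777) are neighbours 38.2 kb apart on chromosome 17, with Tnfsf14, the gene of LIGHT, 39.7 kb beyond Cd70. Tnfsf4 (chr1:161395409-161418410) lies 76.2 kb from Tnfsf18, the gene of the GITR ligand. Cd27 lies at chr6:125232622-125237010 on the minus strand, Cd40 at chr2:165055627-165072948 and Cd40lg at chrX:57212143-57224042, both on the plus strand. Each of the 10 is annotated as protein-coding. On the opposite strand, Gm16008 shares 27.2% of the exon bases of Tnfrsf18 and Gm11110 shares 14.9% of those of Tnfsf9, and because no source used here states a strand setting for the counting, reads of these pairs cannot be told apart. Tnfrsf9 overlaps Camta1 and Cd27 overlaps Vamp1, both on the opposite strand, with 0 exon bases shared.

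RefSeq promoter sequences (GRCm38.p6, 250 bases before to 50 after a gene start) were matched by symbol for 5 of the 10 genes, in 6 promoters. The genes with no entry were Tnfsf4, Tnfsf9, Cd70, Cd40 and Cd40lg. Shown here are both starts of Tnfrsf9, the gene with the largest difference between responders and non-responders, and those of the neighbours Tnfrsf4 and Tnfrsf18, all read 5′ to 3′ on the plus strand. Capitals mark matches to the NF-kappa-B consensus or to the AP-1 motif TGANTCA.
Tnfrsf9, upstream start, chr4:150919905-150920204: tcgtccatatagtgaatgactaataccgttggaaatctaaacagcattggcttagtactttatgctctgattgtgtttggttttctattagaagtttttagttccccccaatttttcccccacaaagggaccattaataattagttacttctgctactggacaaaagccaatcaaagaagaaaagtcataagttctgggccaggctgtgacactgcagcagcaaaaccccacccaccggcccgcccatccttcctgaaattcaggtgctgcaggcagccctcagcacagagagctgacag
Tnfrsf9, downstream start, chr4:150927749-150928048: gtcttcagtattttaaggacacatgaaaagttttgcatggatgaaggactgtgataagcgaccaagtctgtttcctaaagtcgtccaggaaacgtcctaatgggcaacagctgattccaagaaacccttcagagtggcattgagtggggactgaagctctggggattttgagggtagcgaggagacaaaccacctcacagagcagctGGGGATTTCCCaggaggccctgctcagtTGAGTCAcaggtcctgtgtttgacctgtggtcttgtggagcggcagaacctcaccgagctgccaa
Tnfrsf4, chr4:156013445-156013744: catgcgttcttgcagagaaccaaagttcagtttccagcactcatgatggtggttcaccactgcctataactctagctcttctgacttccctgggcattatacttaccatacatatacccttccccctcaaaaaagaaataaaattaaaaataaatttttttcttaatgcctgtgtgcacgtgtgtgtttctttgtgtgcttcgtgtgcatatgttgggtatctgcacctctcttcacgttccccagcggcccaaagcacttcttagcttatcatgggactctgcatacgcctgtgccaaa
Tnfrsf18, chr4:156026072-156026371: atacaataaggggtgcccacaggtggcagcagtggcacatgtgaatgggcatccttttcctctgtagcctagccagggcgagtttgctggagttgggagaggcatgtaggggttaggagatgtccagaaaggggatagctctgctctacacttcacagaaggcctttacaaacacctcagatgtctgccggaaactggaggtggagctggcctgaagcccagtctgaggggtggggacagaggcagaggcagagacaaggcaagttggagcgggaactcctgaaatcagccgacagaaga

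The downstream Tnfrsf9 start was the 1 of the 6 promoters with a match. Its NF-kappa-B match is a run of 11 bases beginning 43 bases before the start, made of overlapping matches read on both strands. Its AP-1 match begins 15 bases before the start and, being a palindrome apart from its middle base, was counted once over both strands. Over the 32851 promoters of the same length, 4.51% held the NF-kappa-B consensus and 7.81% held TGANTCA. These are letter matches, and binding was not measured.

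Library totals ranged from 8.76 to 34.3 M counts. Protein-coding genes took 82.9 to 89.2% of counts in the 17 tumours outside the responder group, 23.8 to 74.3% in 7 of the 8 responders and 87.0% in responder 5. Responders 1 and 4 were under 60%, and results are given without them where they matter. The labels number the libraries group by group, so processing order and group cannot be told apart. Marker genes of cell types differed by group as well: the summed level of 7 T cell genes was 10.0 ± 4.54 CPM (counts per M counts of the TMM-scaled library) in controls (SD, n = 5), 61.4 ± 39.6 CPM in non-responders (n = 6), 121 ± 16.3 CPM in stable tumours (n = 6) and 96.1 ± 35.1 CPM in responders (n = 8). The sum of 5 melanocytic genes ranged from 8341 to 13572 CPM in controls, 433 to 11002 CPM in non-responders, 105 to 243 CPM in the stable tumours and 77.7 to 457 CPM in responders, with 2 of these genes at 0 in at least 1 responder. In bulk tumour RNA, fewer cells of a type and less RNA per cell cannot be told apart, and all values below carry that limit.

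Levels can be compared between genes only per length, for which the deposited RPKM values were used (reads per kb of gene and per M reads). RPKM did not follow CPM by a fixed factor per gene. Tnfrsf18 had 0.931 CPM and 1.72 RPKM in control 4 but 12.4 CPM and 7.66 RPKM in non-responder 6. Tnfrsf9 had 2.82 CPM and 1.25 RPKM, and 56.5 CPM and 23.2 RPKM, in the same tumours. The order below therefore holds for the deposited values, whose length and scaling per tumour are not stated. On the RPKM scale Tnfrsf14 was the highest of the 10 genes in each of the 4 groups, at 4.23 ± 0.947 RPKM in controls and 34.8 ± 10.8 RPKM in responders (SD). Tnfrsf9 was second in each of the 3 anti-CTLA-4 groups, with 6.59 ± 8.22 RPKM in non-responders, 18.8 ± 5.50 RPKM in the stable tumours and 22.8 ± 12.0 RPKM in responders, and its range overlapped that of Tnfrsf14 in each. In controls, Tnfsf9 stood second at 2.14 ± 0.560 RPKM, and its range overlapped those of Tnfrsf18 and Tnfrsf9 after it. Among the anti-CTLA-4 tumours the order below Tnfrsf9 was Tnfrsf18, Cd40, Tnfrsf4, Cd27 and Tnfsf9, with each range overlapping the next. The remaining ligands came last: Cd40lg, Tnfsf4 and Cd70 averaged 0.524, 0.420 and 0.165 RPKM over the 20 anti-CTLA-4 tumours. In each of the 3 anti-CTLA-4 groups, all 6 receptors had a higher mean than all 4 ligands on this scale.

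**Figure D1:**
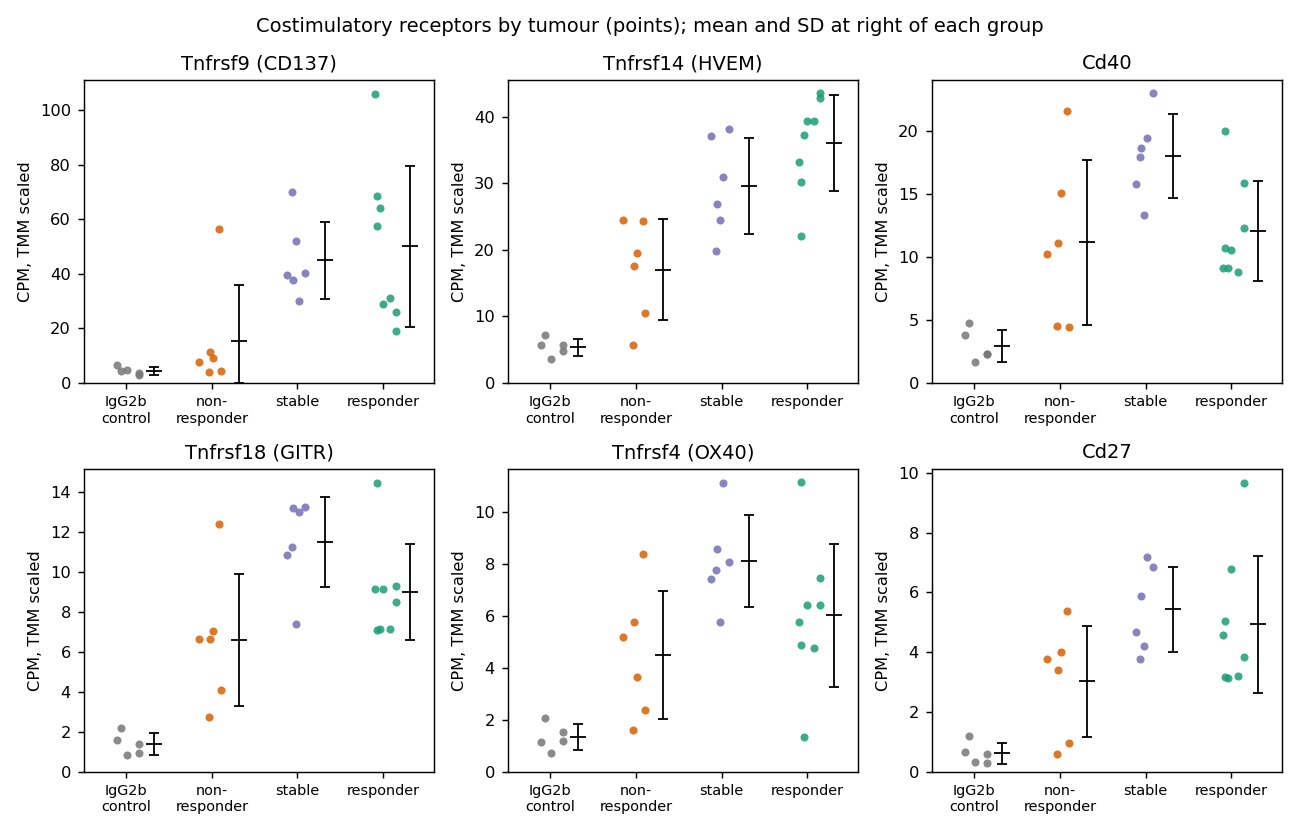
Level of 6 costimulatory receptors in each of 25 tumours, in CPM on a linear axis from 0, one panel per gene with its own scale. Points are tumours, the black marks are the group mean with the SD (the lower bar ends at 0 where the SD exceeds the mean), and in Tnfrsf9 the single high non-responder is non-responder 6 at 56.5 CPM.

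The comparisons of anti-CTLA-4 tumours with controls asked how the transcripts differed from tumours given an antibody without that target. They share the same 5 controls, so their values stand side by side and are not independent. Of the 9 genes tested, 8 were called higher (edgeR quasi-likelihood F test, Benjamini-Hochberg adjusted p under 0.05 over 18031 genes) in responders, in stable tumours, in non-responders and in all anti-CTLA-4 tumours together. Over all genes, 65% were called in responder minus control (36.1% higher), 41.8% in stable minus control (22.2% higher), 13.9% in non-responder minus control (10.6% higher) and 51.1% in anti-CTLA-4 minus control (27.7% higher). The median log2 fold change of the 9 genes was 2.67 for all anti-CTLA-4 tumours against controls, beside 0.07 over all genes tested. The ranges of the 2 groups did not overlap for 7 genes in responders against controls, 8 in the stable tumours and 1, Tnfrsf18, in non-responders.

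Tnfrsf9, the receptor CD137 of stimulated T cells, stood at 4.50, 3.39, 6.38, 2.82 and 4.19 CPM in the 5 controls. It ranged from 4.00 to 56.5 CPM in non-responders (median 8.17), from 30.1 to 69.8 CPM in stable tumours (median 39.9) and from 18.8 to 106 CPM in responders (median 44.2). Every stable tumour and every responder was above every control, while 4 of 6 non-responders were. Of the 6 non-responders, 5 stayed at or below 11.1 CPM, under all stable and responder tumours, and non-responder 6 lay among the stable tumours. The log2 fold change against controls was 3.56 ± 0.61 in responders (SE, adjusted p = 2.74e-05), 3.40 ± 0.61 in stable tumours (adjusted p = 9.73e-05) and 1.86 ± 0.58 in non-responders (adjusted p = 0.0329), all by edgeR. The last call did not hold without non-responder 6, where the value was 0.74 (edgeR adjusted p = 0.243), nor without any 1 of controls 1, 2, 4 and 5.

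Tnfrsf14, the receptor HVEM, stood at 3.60, 5.60, 5.60, 4.71 and 7.14 CPM in controls. It ranged from 5.59 to 24.4 CPM in non-responders (median 18.5), from 19.8 to 38.1 CPM in stable tumours (median 28.9) and from 22.0 to 43.5 CPM in responders (median 38.3). The medians increased in that order, with the ranges of stable tumours and responders overlapping, and the only anti-CTLA-4 tumour within the control range was non-responder 3. Against controls the log2 fold change was 2.76 ± 0.29 in responders (SE, edgeR adjusted p = 1.35e-07), 2.47 ± 0.30 in the stable tumours and 1.68 ± 0.29 in non-responders.

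Cd40, the receptor through which antigen-presenting cells receive helper T cell signals, stood at 1.63, 2.25, 3.80, 2.30 and 4.71 CPM in controls. It ranged from 4.41 to 21.6 CPM in non-responders (median 10.7), from 13.3 to 23.0 CPM in stable tumours (median 18.3) and from 8.80 to 20.0 CPM in responders (median 10.7). Stable tumours had the highest median, and responders lay within the range of the non-responders. Against controls the log2 fold change was 2.05 ± 0.35 in responders, 2.62 ± 0.37 in the stable tumours and 1.94 ± 0.36 in non-responders (SE, edgeR adjusted p = 0.000901 for the last).

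Tnfrsf18, the receptor GITR, stood at 0.833, 1.40, 1.60, 0.931 and 2.17 CPM in controls. It ranged from 2.75 to 12.4 CPM in non-responders (median 6.63), from 7.38 to 13.3 CPM in stable tumours (median 12.1) and from 7.09 to 14.5 CPM in responders (median 8.83). All 20 anti-CTLA-4 tumours were above all 5 controls. The log2 fold change against controls was 2.67 ± 0.29 over the 3 outcome groups (SE, edgeR adjusted p = 5.42e-07).

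Its neighbour Tnfrsf4, the receptor OX40, stood at 0.733, 1.51, 1.13, 1.18 and 2.07 CPM in controls. It ranged from 1.59 to 8.37 CPM in non-responders (median 4.42), from 5.75 to 11.1 CPM in stable tumours (median 7.93) and from 1.34 to 11.1 CPM in responders (median 6.08). The stable group again had the highest median, and the tumours within the control range were non-responder 3 and responder 1, the library with 23.8% protein-coding counts and 6 counts of this gene. The log2 fold change against controls was 2.20 ± 0.37 over the outcome groups (SE, edgeR adjusted p = 3.75e-05).

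Cd27, a receptor that resting T cells already carry, stood at 0.333, 0.590, 0.665, 0.301 and 1.19 CPM in controls. It ranged from 0.602 to 5.39 CPM in non-responders (median 3.60), from 3.78 to 7.18 CPM in stable tumours (median 5.28) and from 3.12 to 9.67 CPM in responders (median 4.21). Non-responders 2 and 3 lay within the control range and the other 18 anti-CTLA-4 tumours above it. The log2 fold change against controls was 2.83 ± 0.45 over the outcome groups (SE, edgeR adjusted p = 2.02e-05).

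**Figure D2:**
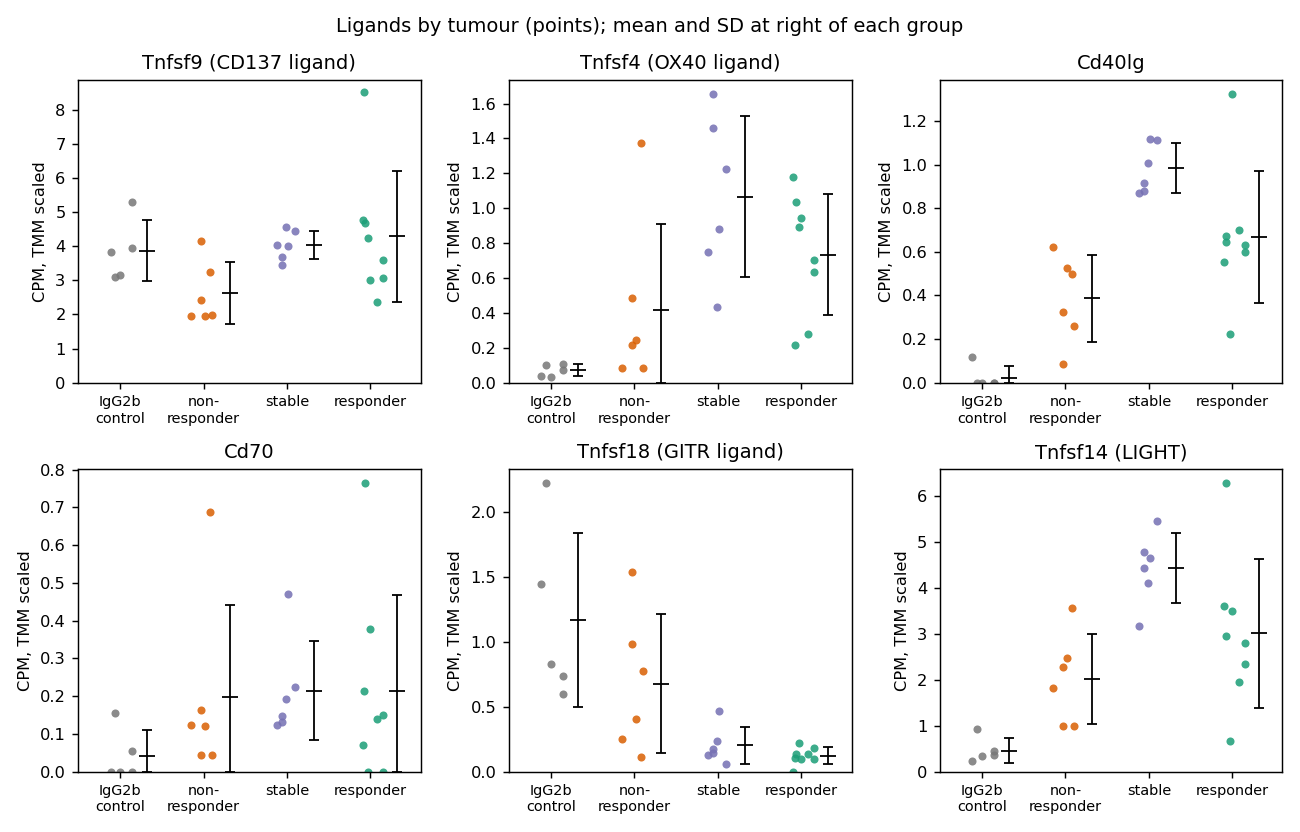
Level of the 4 ligands and of 2 further partners, Tnfsf18 (the GITR ligand) and Tnfsf14 (LIGHT), in each of 25 tumours, in CPM on linear axes from 0 with a scale of its own per gene. Points are tumours and black marks the group mean with the SD, whose lower bar ends at 0 where the SD exceeds the mean; the 8 responders lie at or below 0.223 CPM of Tnfsf18, and Tnfsf9 lies between 1.94 and 8.54 CPM in every tumour.

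Among the ligands, Tnfsf9, the CD137 ligand of antigen-presenting cells, stood at 3.17, 5.31, 3.83, 3.94 and 3.10 CPM in controls. It ranged from 1.94 to 4.17 CPM in non-responders (median 2.21), from 3.46 to 4.55 CPM in stable tumours (median 4.02) and from 2.37 to 8.54 CPM in responders (median 3.92). Stable tumours and responders spread around the control values, and 4 of 6 non-responders lay below all controls. Against controls the log2 fold change was 0.16 ± 0.25 in responders, 0.06 ± 0.27 in the stable tumours and -0.56 ± 0.27 in non-responders (SE, edgeR adjusted p = 0.167), none of them called. Without non-responder 3 the last value was -0.74 and was called lower (edgeR adjusted p = 0.0446). The receptor Tnfrsf9 was called higher in the same comparisons, and the difference between ligand and receptor was not tested.

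Tnfsf4, the OX40 ligand, was rare in controls, at 0.0333, 0.0737, 0.0391, 0.110 and 0.103 CPM, from 10 counts in all. It ranged from 0.0832 to 1.38 CPM in non-responders (median 0.229), from 0.431 to 1.65 CPM in stable tumours (median 1.05) and from 0.215 to 1.18 CPM in responders (median 0.797). All stable tumours and responders were above all controls, and the 1.38 CPM belonged to non-responder 6. The log2 fold change against controls was 3.16 ± 0.62 over the outcome groups (SE, edgeR adjusted p = 0.000183), and for non-responders alone the call was lost without non-responder 6 or without control 1.

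Cd40lg, the ligand carried by activated helper T cells, had 3 counts in the 5 controls, all in control 3, at 0.117 CPM. It ranged from 0.0859 to 0.624 CPM in non-responders (median 0.411), from 0.871 to 1.12 CPM in stable tumours (median 0.960) and from 0.223 to 1.32 CPM in responders (median 0.638). Every stable tumour and responder was above control 3, as were 5 of 6 non-responders. With so few control counts, the mean of the 20 anti-CTLA-4 tumours was 31.3 times the pooled control rate, with a 95% exact Poisson interval of 10.7 to 152 that covers counting error only. Control 3 held all the control counts, so leaving it out fixed the control count at 0. Taking 3 counts over the remaining controls as an upper limit, the anti-CTLA-4 mean was then at least 25.5-fold higher. Because that tumour was picked by its counts, this value adds no support beyond the interval with all controls. Cd40lg was called in anti-CTLA-4 tumours against controls by edgeR (adjusted p = 4.7e-06).

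Cd70, the ligand of CD27, was too rare to be tested and had 5 counts in 2 of the 5 controls. Pooled over tumours it had 28 counts in non-responders, 24 in the stable tumours and 30 in responders. The pooled rate was 0.0361 CPM in controls (95% exact Poisson interval 0.0117 to 0.0842), 0.209 CPM in non-responders (0.139 to 0.303), 0.208 CPM in stable tumours (0.133 to 0.309) and 0.276 CPM in responders (0.186 to 0.394). These intervals cover counting error only and not the spread between tumours. Single tumours carried much of the sums, with 18 of 28 counts in non-responder 6 and 17 of 30 in responder 5. Without them the rate was 0.0930 CPM in non-responders (0.0446 to 0.171) and 0.151 CPM in responders (0.0802 to 0.257), and both intervals overlapped that of controls. Stable tumour 1 held 8 of the 24 stable counts. Without it the stable rate was 0.163 CPM (0.0929 to 0.264), an interval that did not overlap that of controls. With no filter on low counts, Cd70 entered the edgeR test and its log2 fold change over the outcome groups against controls was 2.22 ± 0.83 (SE, adjusted p = 0.0436).

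**Figure D3:**
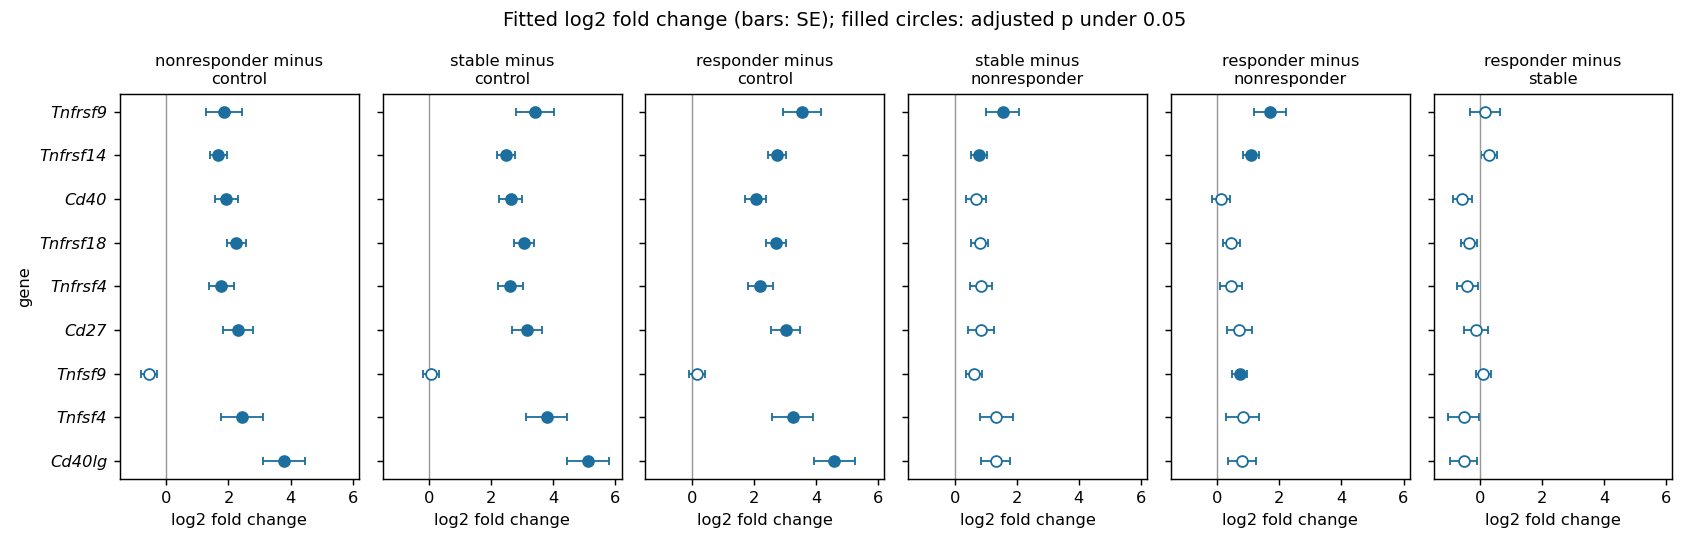
Fitted log2 fold changes of the 9 tested genes in 6 comparisons, with bars for the SE and filled circles for an adjusted p under 0.05 (edgeR). The 3 panels against controls show 8 filled circles each, with Tnfsf9 open at 0.16 or lower, and the panel of responders minus stable tumours shows none; the fitted values of Cd40lg against controls rest on 3 control counts.

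The comparison of responders with non-responders asked which of these transcripts differed between tumours that shrank and tumours that grew under the same antibody. Of the 9 tested genes, 3 were called higher and 0 lower, where 48.9% of all genes were called (25.2% higher), and the count of 3 is read against these shares. All 9 fitted values were positive, with a median log2 fold change of 0.72 beside 0.05 over all genes. Tnfrsf14 had the smallest adjusted p: 7 of the 8 responders were above all 6 non-responders, and the log2 fold change was 1.08 ± 0.25 (SE, edgeR adjusted p = 0.00154). The responder below was responder 5, at 22.0 CPM. Tnfrsf9 differed by 1.70 ± 0.51 (SE, edgeR adjusted p = 0.00913), with 4 of 8 responders above all non-responders, and by 2.82 without non-responder 6. Tnfsf9 differed by 0.72 ± 0.24 (SE, edgeR adjusted p = 0.0192), also with 4 of 8 responders above all non-responders, and by 0.49, no longer called, without responder 3. The Tnfsf9 call was also lost without a filter on low counts (adjusted p = 0.0826) and in a fit of only these groups (adjusted p = 0.0719), both by edgeR.

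The other 6 genes were not called. Their log2 fold changes ran from 0.12 for Cd40 to 0.81 for Tnfsf4, with 0.80 for Cd40lg, 0.71 for Cd27, 0.45 for Tnfrsf18 and 0.44 for Tnfrsf4, and their adjusted p from 0.140 to 0.756 (edgeR). Without non-responder 6, whose values of Tnfrsf9, Tnfsf4 and Cd70 stood apart from its group, 5 genes were called, where 8524 of all 17995 were. When each library's protein-coding share entered the fit as a covariate, 0 of the 9 were called, and the log2 fold change was 1.72 for Tnfrsf9 (adjusted p = 0.0655), 0.85 for Tnfrsf14 (adjusted p = 0.0806) and 0.92 for Tnfsf9 (adjusted p = 0.0514). Over the whole table that covariate left 1810 genes called, beside 8823 without it. The share was 23.8 to 74.3% in 7 responders and at least 82.9% in every tumour outside that group, so the fit separates share and group poorly. Without responders 1 and 4, all 3 genes were still called, at 1.73, 1.04 and 0.82.

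Stable tumours against non-responders gave 2 genes called higher and 0 lower, where 14.9% of all genes were called (7.08% higher). Tnfrsf9 differed by 1.54 ± 0.53 (SE, edgeR adjusted p = 0.0499) and Tnfrsf14 by 0.80 ± 0.26 (adjusted p = 0.0413), and 5 of the 6 stable tumours were above all non-responders in Tnfrsf14. The Tnfrsf9 call was lost in 21 of the 25 fits that left out 1 tumour, and the Tnfrsf14 call in 7 of 25. Tnfrsf18 followed at 0.80 ± 0.28 (adjusted p = 0.0529) and Cd40lg at 1.32 ± 0.48 (adjusted p = 0.0613). Cd40lg was the 1 gene whose ranges did not overlap, since the lowest stable tumour had 0.871 CPM and the highest non-responder 0.624 CPM. All 9 values were positive, with a median of 0.84 beside -0.02 over all genes. The count was 6 without non-responder 6, where 3804 of all 17995 genes were called. It was 0 without any 1 of non-responders 1, 2 and 3 or stable tumours 1, 2, 3 and 6, where 1470 to 2540 of all genes were called. It was also 0 without responders 1 and 4, where 2762 were.

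Responders against stable tumours gave 0 of 9 called, with 0 at an unadjusted p under 0.05 in edgeR and 0 called by DESeq2, where 38.2% of all genes were called. Cd40 had the largest difference, -0.57 ± 0.30 on the log2 scale (SE, edgeR adjusted p = 0.129), with 6 of 8 responders below all stable tumours. In Cd40lg, 7 of 8 responders were below all stable tumours. Tnfsf4, Cd40lg, Tnfrsf4, Tnfrsf18 and Cd27 were also below 0, at -0.53, -0.53, -0.41, -0.35 and -0.14, while Tnfrsf14, Tnfrsf9 and Tnfsf9 were above it, at 0.28, 0.16 and 0.10. In a fit of these groups alone, 1 of the 9 genes was called, Cd40, where 5457 of all 16504 genes were called. After allowing for each library's protein-coding share, 0 of all 18031 genes were called between responders and stable tumours. The 38.2% therefore depended on the fit, and the fit with the share separates share and group poorly.

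Because T cell genes differed between the groups, each gene was also set against the mean of 4 genes of the CD3 complex, Cd3d, Cd3e, Cd3g and Cd247, which mark T cells. These ratios are descriptions and were not tested. That mean was 1.34 ± 0.731 CPM in controls, 8.71 ± 5.96 CPM in non-responders, 16.3 ± 2.56 CPM in the stable tumours and 13.2 ± 4.87 CPM in responders (SD). Relative to it, Tnfrsf18 was 1.10 ± 0.262 in controls, 0.904 ± 0.303 in non-responders, 0.714 ± 0.144 in the stable tumours and 0.708 ± 0.114 in responders, and Cd27 was 0.454 ± 0.0917, 0.347 ± 0.0822, 0.331 ± 0.0541 and 0.385 ± 0.152 in the same order. For both genes the mean ratio was highest in controls, and the ranges of controls and of each anti-CTLA-4 group overlapped. The ranges of Tnfrsf4 and Cd40 did not all overlap. The lowest control ratio of Tnfrsf4, 0.808, was above every stable tumour (0.596 at most) and every responder (0.696 at most). The lowest control ratio of Cd40, 1.55, was likewise above every stable tumour (1.42 at most) and every responder (1.21 at most). The non-responder ratios of Tnfrsf4 and Cd40 reached 0.838 and 2.18, within the control ranges. For the rare ligand Cd40lg the mean ratio was lowest in controls, at 0.0214 on 3 counts, with 0.0497, 0.0611 and 0.0520 in the same order. Tnfsf4 averaged 0.0631 in controls, then 0.0508, 0.0679 and 0.0572, and Cd70 averaged 0.0272, then 0.0195, 0.0126 and 0.0139.

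Tnfsf9 had a ratio of 3.47 ± 1.50 in controls, 0.581 ± 0.718 in non-responders, 0.253 ± 0.0433 in the stable tumours and 0.363 ± 0.220 in responders. Its own level against controls had not passed the test, and the CD3 mean differed. Tnfrsf9 had a ratio of 3.75 ± 1.76 in controls, 1.56 ± 0.875 in non-responders, 2.91 ± 1.34 in the stable tumours and 4.16 ± 2.68 in responders. Responders 1, 2 and 3 had ratios of 8.08, 7.10 and 6.68, above every other tumour, while responders 6 and 7 were at 1.71 and 1.42. Tnfrsf14 had a ratio of 4.46 ± 1.40 in controls, 2.29 ± 0.633 in non-responders, 1.83 ± 0.475 in the stable tumours and 3.10 ± 1.25 in responders, so its mean ratio was highest in controls. Every stable tumour (2.54 at most) was below every control (2.79 at least), while the ranges of non-responders and responders overlapped that of controls. With the mean log2 CPM of the 4 CD3 genes as a covariate in the edgeR fit, responders and non-responders still differed in Tnfrsf9 by 1.52 (adjusted p = 0.0110), in Tnfsf9 by 0.82 (adjusted p = 0.0204) and in Tnfrsf14 by 0.84 (adjusted p = 0.00397). In that fit, 0 of the 9 genes were called against controls. Of all 18031 genes, 1434 were called in responders minus controls, and 0 in each of the other 3 comparisons with controls. The CD3 mean was at most 2.56 CPM in controls and at least 2.07 CPM in anti-CTLA-4 tumours. Markers of macrophages, which carry CD40, differed too, with 5 genes summing to 475 ± 111 CPM in controls, 972 ± 426 CPM in non-responders, 1715 ± 306 CPM in the stable tumours and 961 ± 430 CPM in responders, and their part in the results was not tested.

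**Figure D4:**
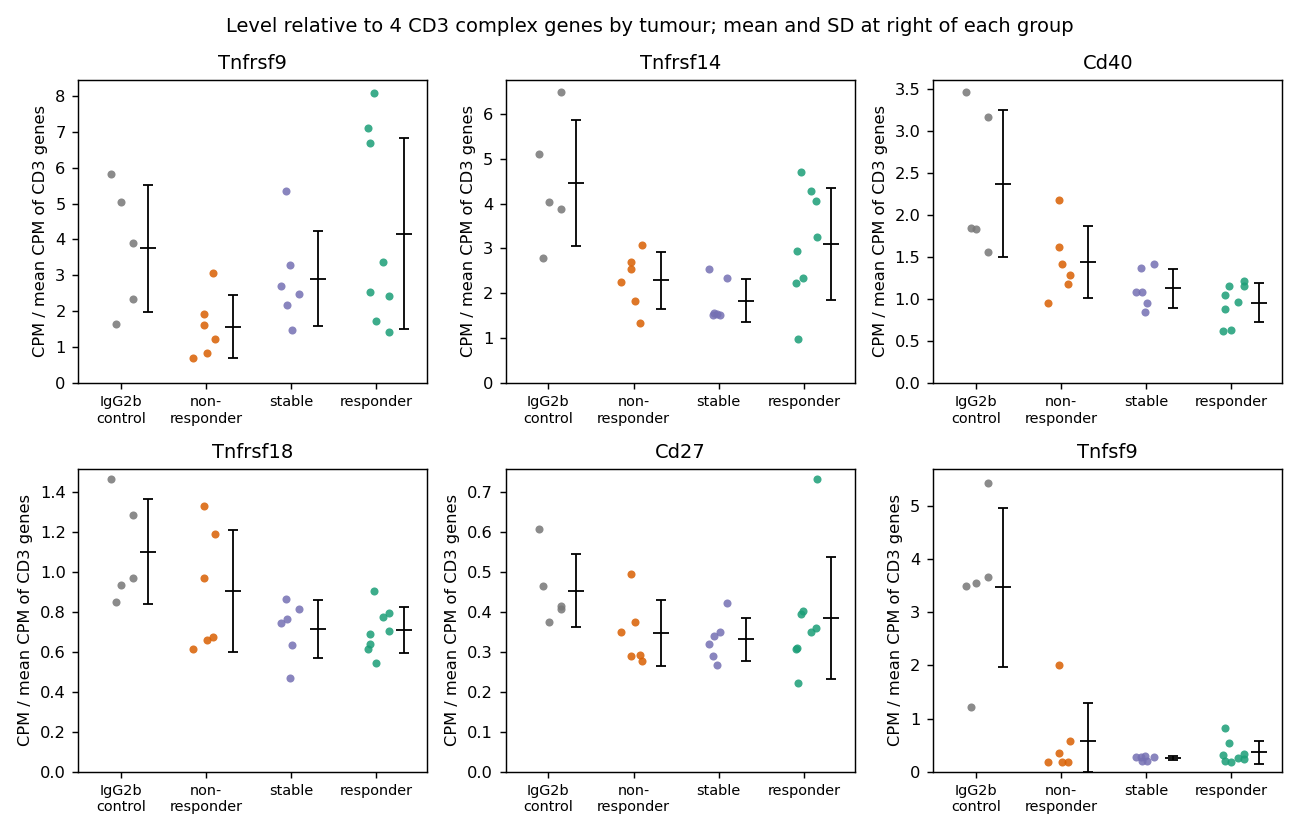
Level of 6 genes divided by the mean of Cd3d, Cd3e, Cd3g and Cd247 in the same tumour, on linear axes from 0 with a scale of its own per gene. Points are tumours and black marks the group mean with the SD, whose lower bar ends at 0 where the SD exceeds the mean (Tnfsf9 in non-responders); the mean of Tnfsf9 is highest in controls, and in Tnfrsf9 the 3 highest points are responders 1, 2 and 3 at 6.68 or above.

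Receptor and ligand pairs were compared within groups, using each tumour's log2 CPM as a deviation from its group mean, with permutation of tumours within groups and adjustment over the 4 pairs. Over 25 tumours, Cd40 and Cd40lg had a Pearson r of 0.53 (permutation p = 0.0305, adjusted 0.122) and a Spearman rho of 0.57 (permutation p = 0.00908, adjusted 0.0259). Tnfrsf4 and Tnfsf4 had an r of 0.39 (permutation p = 0.119, adjusted 0.159) and a rho of 0.53 (permutation p = 0.0130, adjusted 0.0259). For these pairs the rank correlation passed the adjusted threshold and the linear one did not. Neither rank correlation passed on log2(RPKM + 1) (permutation p adjusted 0.196 for both) or over the 20 anti-CTLA-4 tumours alone (adjusted 0.0510 for both).

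Tnfrsf9 and Tnfsf9 had an r of 0.35 and a rho of 0.44 (permutation p = 0.164 and 0.0614, adjusted 0.164 and 0.0819), and Cd27 and Cd70 an r of 0.42 and a rho of 0.38 (permutation p = 0.0612 and 0.0824, adjusted 0.122 and 0.0824). Without the 2 tumours farthest from the median of the receptor, r was 0.66 for Tnfrsf4 and Tnfsf4 (permutation p adjusted 0.0107, with 0.0407 for rho), 0.51 for Cd40 and Cd40lg (adjusted 0.113, with 0.0608 for rho), 0.26 for Cd27 and Cd70 and 0.26 for Tnfrsf9 and Tnfsf9. The T cell sum of non-responders alone ran from 14.5 to 123 CPM, and its part in these values was not tested.

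The other binding partners of these receptors did not all move the same way. Of 5 partners, 4 were called higher in anti-CTLA-4 tumours than in controls and Tnfsf18, the GITR ligand, was called lower. Of all genes, 51.1% were called in that comparison (27.7% higher). Tnfsf18 stood at 0.833, 0.737, 1.45, 0.603 and 2.22 CPM in controls. It ranged from 0.115 to 1.54 CPM in non-responders (median 0.591), from 0.0557 to 0.471 CPM in stable tumours (median 0.160) and from 0 to 0.223 CPM in responders (median 0.121). All 14 stable and responder tumours were below all controls, on 23 and 12 counts in all, and non-responders 1, 2 and 3 lay within the control range. The log2 fold change against controls was -3.29 ± 0.58 in responders, -2.49 ± 0.57 in the stable tumours and -0.81 ± 0.52 in non-responders (SE), called in responders and stable tumours (edgeR adjusted p = 3.6e-05 and 0.000992). Against non-responders it was -2.49 ± 0.57 in responders and -1.69 ± 0.56 in stable tumours (SE, edgeR adjusted p = 0.00149 and 0.0422). Its receptor Tnfrsf18 was higher in the same tumours. Endothelial cells are known to carry GITR ligand, and 3 endothelial genes summed to 134 ± 22.3 CPM in controls, 153 ± 42.7 CPM in non-responders, 89.4 ± 17.8 CPM in the stable tumours and 61.1 ± 18.1 CPM in responders (SD). The part of these cells, or of the melanocytic cells, in the result was not tested. The stable call against non-responders was lost in 8 of the 25 fits that left out 1 tumour and in 6 of 10 other alternatives. The responder call against non-responders was lost in all 3 limma fits on RPKM, where the value was -0.22 on log2(RPKM + 1) and -0.78 on log2(RPKM + 0.1).

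Tnfsf14, the HVEM ligand LIGHT, was higher by 2.72 ± 0.40 in anti-CTLA-4 tumours than in controls and, for stable tumours over non-responders, by 1.13 ± 0.38 (SE, edgeR adjusted p = 8.4e-06 and 0.0435), the second call being lost in 11 of the 25 fits that left out 1 tumour. In responders against non-responders it differed by 0.60 ± 0.36 and was not called. Lta, lymphotoxin alpha, was higher by 4.53 ± 0.55 against controls, and by 1.61 ± 0.43 in responders and 1.61 ± 0.45 in stable tumours against non-responders (SE, edgeR adjusted p = 0.00421 and 0.0179). The inhibitory HVEM partners Btla and Cd160 were higher than in controls by 1.87 ± 0.38 and 2.83 ± 0.52, and neither was called between outcome groups.

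A list of 18 genes of receptor signalling to NF-kappa-B holds inhibitors such as Tnfaip3 as well, so its counts do not measure signalling activity. Of these, 15 were called higher in responders than in non-responders and 14 in stable tumours than in non-responders, with 0 lower in both. The median log2 fold change was 0.49 in each, beside 0.05 and -0.02 over all genes. Over all genes 25.2% were called higher in the first comparison and 7.08% in the second. Against controls 16 of 18 were higher, where 27.7% of all genes were, with a median of 0.92 beside 0.07. Traf1, an adaptor of CD137 that is itself an NF-kappa-B target, was higher by 1.23 ± 0.31 in responders than in non-responders and Traf5 by 0.96 ± 0.18 (SE, edgeR adjusted p = 0.0026 and 0.000302). Tnfaip3, the inhibitor A20, was higher by 0.96 ± 0.20 in the stable tumours than in the non-responders, and by 1.86 ± 0.19 against controls, where Traf1 was higher by 2.71 ± 0.33. Responders and stable tumours differed in 1 of the 18, Ikbkb, by 0.51 ± 0.11, where 38.2% of all genes were called. Once the protein-coding share was a covariate, the count for responders against non-responders was 7 of 18, where 1810 of all 18031 genes were called, and that for stable tumours was 15, where 3162 were. Traf1 and Traf5 were not among the 7, at 1.12 and 0.65 (edgeR adjusted p = 0.0605 and 0.0506). With the CD3 covariate the counts were 13, where 7944 of all genes were called, and 0, where 9 were.

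Of 20 tested genes among 22 other TNF family receptors, 6 were higher and 2 lower in responders than in non-responders, the latter being Tnfrsf19 (-2.97 ± 0.73) and Ltbr (-0.64 ± 0.13), and Tnfrsf25, the receptor DR3 of T cells, had the largest rise (1.84 ± 0.32, SE). Over all genes 48.9% were called in that comparison (25.2% higher). Once each library's protein-coding share entered the fit, 4 of the 20 were higher and 0 lower, where 1810 of all 18031 genes were called. In stable tumours against non-responders 6 were higher, among them Tnfrsf26 (1.74 ± 0.37), and 2 lower, Tnfrsf19 (-3.25 ± 0.81) and Tnfrsf22 (-0.78 ± 0.25). Over all genes 14.9% were called there (7.08% higher). Against controls 14 of 20 were higher, with Fas, the death receptor, at 2.45 ± 0.35, and 3 lower, Tnfrsf19, Tnfrsf12a and Ltbr. Of all genes, 51.1% were called against controls (27.7% higher). Of 11 other TNF family ligands, 10 were higher than in controls, with Ltb at 3.19 ± 0.40 and Fasl at 3.19 ± 0.58. In responders against non-responders 1 of the 11 was called, Tnfsf13b, the B cell survival factor BAFF (0.72 ± 0.25), a call lost with either covariate and in a fit of only these groups. The stable tumours exceeded non-responders in 3 ligands that were called: Tnfsf13b (1.11 ± 0.26), Tnfsf13 (1.14 ± 0.33) and Tnfsf8 (1.03 ± 0.30). Tnfsf15 was lower in responders than in stable tumours (-0.98 ± 0.37, edgeR adjusted p = 0.0404). Responders were lower than stable tumours in 3 of the 20 receptors, Eda2r, Ltbr and Tnfrsf1a, where 38.2% of all genes were called. Once the protein-coding share was a covariate, 0 of all 18031 genes were called in that comparison. The 0 among these receptors and ligands is therefore not particular to them.

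The genes most like each member in log2 CPM over the 25 tumours, among 13422 candidates, are named by their Pearson r; these correlations are descriptions over tumours that share their group and library differences. For Cd27 they were Gimap5 (r = 0.98), 9930111J21Rik1 and Gimap3, the Gimap genes being lymphocyte GTPases. For Tnfrsf18 they were Icam1, Cd2 and Ltb (0.98 each), for Cd40lg Cd2 (0.95), Ago1 and Ikzf1, and for Tnfrsf4 Gpr174 (0.96), Spib and Tnfsf14. For Cd40 they were Icam1 (0.99), Slamf8 and Ifng.

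Tnfrsf9 was most like Adam8 (0.98), Plaur and Ell2, of which Adam8 and Plaur are known from activated myeloid cells, and its r with Adam8 was 0.91 over deviations from group means. Tnfrsf14 was most like Rasal3 (0.98), Elmo1 and Nod1, and Tnfsf4 most like Cd1d1 (0.93), Relt and Ubd. Tnfsf9 had lower values and other companions, Ier3 (0.78), the hexokinase gene Hk2 (0.77) and the glucose transporter gene Slc2a1 (0.77). Cd70, with few counts, reached 0.79 with Ccl1.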

How the data were processed

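Per the labels' protocols, library preparation used a total RNA kit that keeps strand, and the molecule field reads polyA RNA. The submitters' processing notes name bcl2fastq 2.17, Trimmomatic, STAR 2.5.1, RSEM 1.2.22 and the build mm10. The authors deposited expected counts per gene, estimated for 55450 genes from aligned reads, with 5.64% of values not whole, and RPKM values for 19522 gene symbols. Expected counts were rounded to whole numbers, since the planned tests had taken the table to hold whole counts. The deposited RPKM values served for levels between genes and in alternatives, and no source used here states the gene lengths behind them.

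Tests used edgeR 4.0.16 in R 4.3.3: filterByExpr by group (18031 genes), TMM scaling, 4 group means over 25 tumours and robust quasi-likelihood F tests, two-sided, with Benjamini-Hochberg adjustment over all tested genes and a threshold of 0.05. The anti-CTLA-4 contrast weighted the 3 outcome groups equally. SEs were derived from the F statistic. Log2 CPM used a prior count of 2. Pair correlations used 100000 permutations within groups with scipy 1.17.1. Total counts per library were 8.76 to 34.3 M. Alternatives were RLE factors, DESeq2 1.42.0, limma 3.58.1 on log2(RPKM + 1) and log2(RPKM + 0.1), other filters, protein-coding genes only, the protein-coding share or the CD3 level as a covariate, only the groups compared and each tumour left out. The omission of responders 1 and 4, for Cd70 of the tumour with most counts, and for the Cd40lg ratio of control 3, was added after seeing the data. The scripts were tested on simulated data.

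The members and gene lists were chosen with earlier results of these data known. All 10 members and the 5 partners are named. From the other lists, genes called in a comparison with a mean of at least 1 CPM and the largest log2 fold change were named, at most 2 a direction. Genes named beyond that to complete a count (Tnfsf8, Tnfrsf1a, Ltbr against controls) were chosen after their values were seen. Likeness left out predicted genes, antigen receptor segments and ribosomal protein genes.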

Additional observations from a re-analysis of the deposited data

Results flagged for a closer look

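Among the 10 genes in 4 groups, 8 of 40 groups held 1 tumour whose gap to the nearest other tumour was a larger part of the group's range than Dixon's 95% critical value allows. Chance flags about 1 in 20 groups where values are normally distributed, which was not checked for these CPM values. The genes and tumours are also not independent, so 8 of 40 cannot be set against that rate. Non-responder 6 accounted for 3 of the 8, with 56.5 CPM of Tnfrsf9 (the other non-responders had 4.00 to 11.1), 1.38 CPM of Tnfsf4 (0.0832 to 0.487) and 0.688 CPM of Cd70 (0.0430 to 0.162). In that tumour the T cell sum was 123 CPM and the melanocytic sum 433 CPM, the highest and the lowest of its group. Responder 3 had 8.54 CPM of Tnfsf9, where the other responders had 2.37 to 4.78. Responder 5, the responder with 87.0% protein-coding counts, had 14.5 CPM of Tnfrsf18 (the others 7.09 to 9.31). Responder 6 had 1.32 CPM of Cd40lg (the others 0.223 to 0.698), and control 3 had 0.117 CPM, on 3 counts, where the other controls had 0. With every other control at 0, the rule was bound to flag control 3. Stable tumour 1 had 0.471 CPM of Cd70, on 8 counts, where the others had 0.124 to 0.223.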

How the results depend on the processing

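Over 63 member results and 2306 alternatives, 2145 kept their direction and side of the threshold, 83 lost a call, 43 gained one and 35 changed sign, 0 of these while called. The count of members called was 3 in responders minus non-responders and 2 in stable tumours minus non-responders, where 8823 and 2693 of all 18031 genes were called. Without a filter on low counts the responder count was 2 and the stable count 0, where 8360 and 1906 of 32985 genes were called. In fits limited to both groups the counts were 2 and 1, where 6708 of 16858 and 2015 of 16278 genes were called. The stable count was 0 without responders 1 and 4 (chosen after seeing the data), where 2762 of 17974 genes were called. By DESeq2 it was 4, where 3506 of 19531 were. By limma the 2 counts were 7 and 5 on log2(RPKM + 1), where 7672 and 3144 of 16280 genes were called. They were 8 and 5 on log2(RPKM + 0.1), where 7595 and 3168 were. On log2(RPKM + 1) with no filter they were 7 and 4, where 7649 and 2965 of 19518 were. The responder count was 0 once the protein-coding share was a covariate, where 1810 of 18031 genes were called. Responders minus stable tumours gave 1 in a fit of only these groups and 1 with the CD3 covariate, where 5457 of 16504 and 6867 of 18031 genes were called. Non-responders minus controls gave 5 in a fit of only these groups, where 1559 of 16569 genes were called. In that fit 7 of the 9 passed the filter and Tnfrsf9 alone of these lost its call. With the CD3 covariate the stable count against non-responders was 0, where 9 of all 18031 genes were called. All 4 counts against controls were 0 too. There 1434 of all genes were called in responders, and 0 in stable tumours, in non-responders and in all anti-CTLA-4 tumours. Leaving out 1 tumour at a time gave 2 to 5 for responders and 0 to 6 for stable tumours against non-responders. The 6 came without non-responder 6, where 3804 of 17995 genes were called. Responders minus stable tumours gave 0 to 0, and responders, stable tumours and all anti-CTLA-4 tumours against controls each gave 8 to 8. Non-responders against controls gave 6 to 9. The 9 (without non-responder 3, where 4237 of 17992 genes were called) were 8 higher and Tnfsf9 lower. The cause of these changes was not tested. The median of all genes in responders minus controls was 0.16 with TMM scaling and 0.04 over protein-coding genes only.

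Changes of sign, as log2 fold changes, were these. Without a filter, Tnfsf9 was -0.025 in responders and -0.087 in stable tumours against controls. With the protein-coding share, responders minus stable tumours gave 0.27 for Tnfrsf4 and 0.000553 for Cd27, and without responders 1 and 4 0.000863 for Cd27. With the CD3 covariate, responders minus non-responders gave -0.11 for Tnfrsf4, -0.30 for Cd40 and -0.025 for Tnfsf14. For Cd27 it gave -0.14 in stable tumours minus non-responders and 0.26 in responders minus stable tumours. Against controls it gave, in responders, -0.28 for Tnfrsf4, -0.27 for Cd27 and -0.19 for Cd40, and in stable tumours -0.10 for Tnfrsf4 and -0.53 for Cd27. In non-responders it gave -0.17 for Tnfrsf4, -0.46 for Tnfrsf9 and -0.40 for Cd27. In all anti-CTLA-4 tumours it gave -0.18 for Tnfrsf4, 0.22 for Tnfsf9, -0.40 for Cd27, -0.56 for Btla, -0.68 for Cd160 and -0.71 for Fasl. By limma, responders minus stable tumours gave 0.094, 0.10 and 0.094 for Tnfrsf18 and 0.26, 0.31 and 0.26 for Cd27 in the order of settings above. Leaving out 1 tumour at a time, Tnfsf9 against controls ran from -0.012 (control 5) to 0.20 in stable tumours, where it was -0.0066 without control 1, from -0.19 to 0.021 (control 2) in all anti-CTLA-4 tumours and from -0.068 (responder 3) to 0.29 in responders. Responders minus stable tumours ran from -0.13 (responder 3) to 0.18 for Tnfsf9 and from -0.094 (responder 2) to 0.34 for Tnfrsf9. Cd40 in responders minus non-responders ran from -0.046 (non-responder 2) to 0.42, with -0.043 and -0.025 without non-responder 3 and responder 5. The correlation of Tnfrsf4 with Tnfsf4 was 0.66 without responder 1 and non-responder 3.

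No paired analysis was possible because the replicate numbers follow the order of the records and tie no tumours together. Depth limited Cd70, Cd40lg and Tnfsf4, with 5, 3 and 10 counts in the 5 controls.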
